A study of Homo sapiens with 6 samples.

Results

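The transcripts of 55 histone-modifying enzymes were followed in colorectal cancer cells treated with dihydroartemisinin. The set was defined by gene symbol alone and not by expression, although it was chosen with earlier results of these data known. Patterns were fixed for the lysine demethylase (KDM), lysine methyltransferase (KMT), SET-domain (SETD), EZH, histone deacetylase (HDAC) and lysine acetyltransferase (KAT) series. KDM and KMT symbols had to hold a digit and then a letter, which leaves out KDM8. Members are all genes outside the Y chromosome whose symbols fit a pattern. These are 55 of 39293 gene names with read counts, made up of 17 demethylases, 7 methyltransferases of the KMT2 and SETD1 kind, 12 other methyltransferases, 11 deacetylases and 8 acetyltransferases. Of the 55, 53 passed the filter on low counts and were tested. HDAC10, with 5 to 14 counts per library, and KDM4E, with 1 count in 1 DHA library and 0 in the other libraries, were not.

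RNA came from SW480, an established epithelial line from a human colorectal cancer. Cells of 3 wells received 20 µg/mL dihydroartemisinin (DHA), the active form of the artemisinin antimalarial drugs, for 4 h. Cells of 3 control wells received 0.1% DMSO, the solvent. The DMSO content of the DHA wells was not given in the labels used here. Poly(A) RNA was sequenced, and the values here are read counts per gene, printed as CPM, a share of the library's counts scaled by the TMM method, with mean ± SD over 3 libraries. No label states that the wells were separate cultures, so p-values describe the spread between these wells, and in bulk RNA fewer cells with a transcript and less transcript per cell cannot be told apart.

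Histone tails carry methyl and acetyl groups that enzymes write and erase. Methylation of histone H3 at lysine 4 (H3K4) marks active promoters and enhancers, methylation at lysine 9 or lysine 27 (H3K9, H3K27) marks silent chromatin, and methylation at lysine 36 (H3K36) marks transcribed gene bodies. Acetylation opens chromatin and is removed by deacetylases, many of which work inside corepressor complexes. In colorectal cancer, genes for several of these enzymes are recurrently mutated, and deacetylases are overexpressed in many tumours.

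The smallest library held 14291726 counts and the largest 18938456, and a floor of 3 counts was 0.158 CPM in the largest and 0.210 CPM in the smallest. The DHA library of replicate 2 stood apart from the other DHA libraries, with a chi-square per gene of 14.6 and 14.8 against them, compared with 1.66 between those of replicates 1 and 3. Among controls the library of replicate 2 stood apart to a lesser degree. It had 8.78 and 8.39 against the other controls, compared with 3.29 between those of replicates 1 and 3. The epithelial markers KRT8 and KRT18 averaged 2739 and 432 CPM in controls and 3419 and 797 CPM in DHA, both called as higher in every alternative fit. CDH1 fell from 95.7 to 78.8 CPM, a call lost in 1 alternative fit. EPCAM at 224 and 212 CPM, the intestinal factor CDX2 at 32.2 and 30.5 CPM and KRT20 at 2.26 and 2.15 CPM did not pass. CDX1 was at 0 in every library, and VIL1 was at 0.133 CPM in controls and 0.664 CPM in DHA. Of 16 markers of other cell types, the fibroblast collagen gene COL1A1 rose from 24.3 ± 4.16 to 81.3 ± 11.2 CPM and the monocyte gene CD14 rose from 0.510 ± 0.272 to 4.36 ± 1.19 CPM, both called in every alternative fit. The summed level of the 6 fibroblast markers was 20.3 to 28.5 CPM in controls and 73.6 to 94.3 CPM in DHA, that of the 6 leukocyte markers 0.427 to 1.13 and 3.59 to 5.99 CPM, and that of the 4 endothelial markers 1.22 to 2.01 and 1.13 to 2.07 CPM. COL1A2, DCN, LUM and PTPRC had 0 counts in all 6 libraries. The other markers under the low-count filter reached at most 10 counts in a library, and among them COL3A1 was at 0.0558 CPM in controls and 0.250 CPM in DHA, LYZ at 0.0341 and 0.200 CPM and CD68 at 0 and 0.161 CPM. The part of these markers in the results below was not tested.

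After 4 h of DHA members of the family rose and fell. In 5 of 12 pairs of relatives picked by hand they went opposite ways, and the share among pairs of other genes was not computed. KDM6B, which removes H3K27 methylation, rose by 1.28 on the log2 scale, and KDM2A, an H3K36 demethylase bound to CpG islands, rose by 0.84. The H3K4 methyltransferases SETD7, KMT2A and KMT2D fell by 1.14, 1.09 and 0.95, and the deacetylases HDAC1 and HDAC9 fell by 0.48 and 1.02. In all, 15 of the 53 tested members rose and 17 fell at an adjusted p under 0.05, which throughout is the Benjamini-Hochberg value over 15811 genes from edgeR's quasi-likelihood fit. That is 60.4% of the members, and over all genes tested 59.6% passed, 29.6% higher and 30.1% lower in DHA. The members' share was near that background, so that the count as such does not set the family apart.

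The split between rises and falls depended on the scaling. It was 15 to 17 with TMM and 13 to 22 with library totals alone. With an added offset for GC content and exon length it was 23 to 14, and without the DHA library of replicate 2 it was 17 to 15. The median log2 fold change of all genes tested was 0.01 with TMM, −0.08 with library totals alone and 0.01 with the offset. How many of all genes went in each direction under these alternatives was not computed. A change of at least 2-fold with the same adjusted p was found for 4 members, or 7.55% against 15.7% of all genes tested: KDM6B rose, and SETD7, KMT2A and HDAC9 fell. With the offset this held for KDM6B and, in addition, KDM3A, and not for the other 3. Control and DHA libraries did not overlap for 36 members, 15 higher and 21 lower in DHA, which is 67.9% against 65.2% of all genes. The median log2 fold change was −0.06 for the members and 0.01 for all genes. The authors' deposited table, which lists only genes past its own limits, held the same 4 members, with log2 fold changes of 1.27 for KDM6B, −1.16 for SETD7, −1.10 for KMT2A and −1.03 for HDAC9.

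**Figure D1:**
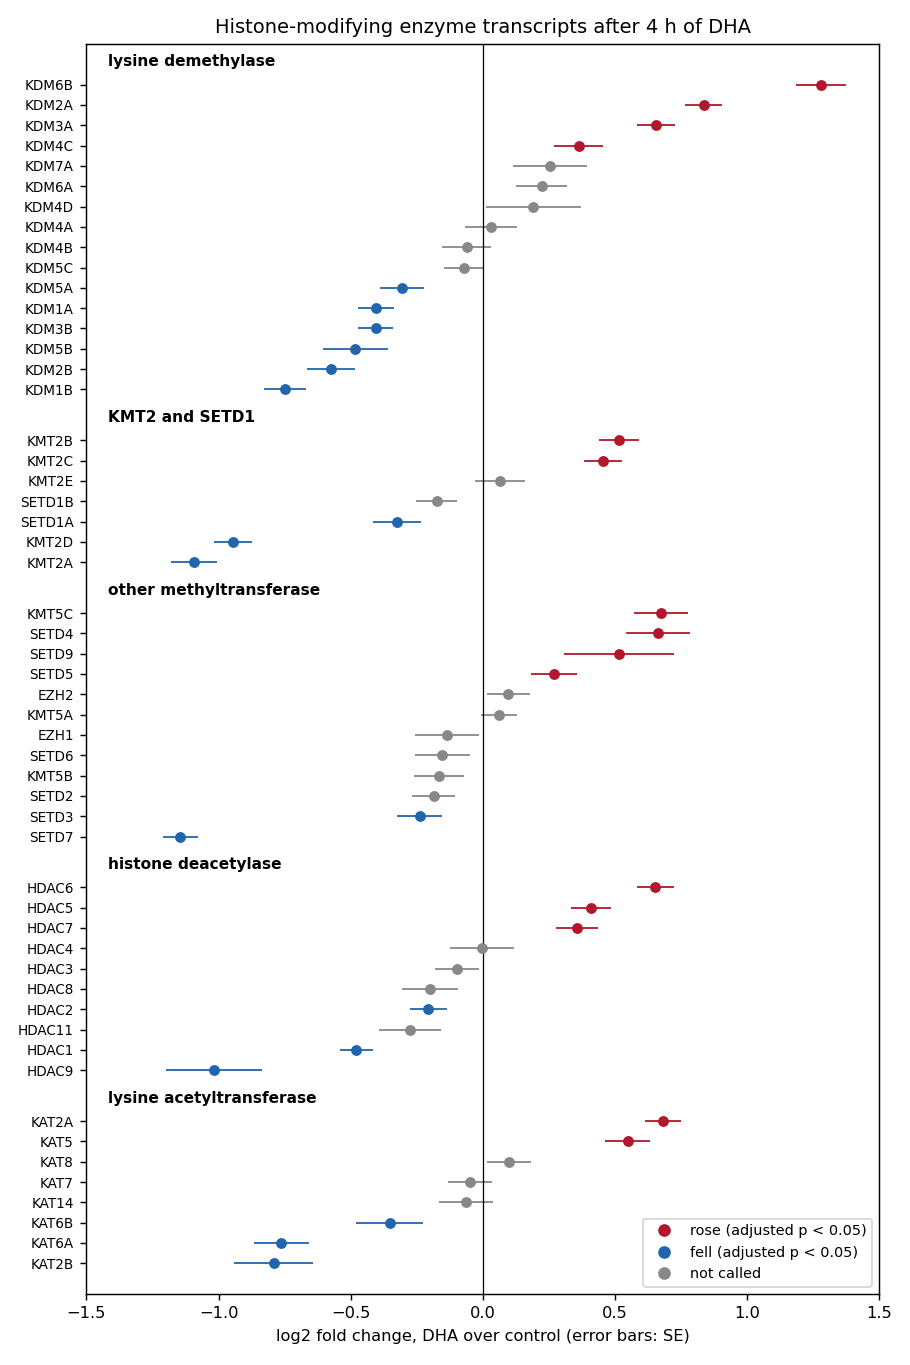
Log2 fold change (DHA over control) of the 53 tested members by enzyme class, with bars for the SE. Red points rose and blue points fell at an adjusted p under 0.05 in edgeR's test, and grey points did not pass. KDM6B at 1.28 is the highest value and SETD7 at −1.14 the lowest, and each of the 5 classes holds red and blue points.

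For the 4 members that changed at least 2-fold, the DNA around the annotated transcription start is shown so that the start regions of a member that rose and of members that fell can be read side by side. Each run is 300 bases from RefSeq on build GRCh38.p14, from 250 bases before the start to 50 bases after it, written 5′ to 3′ on the gene's strand, with every CpG dinucleotide in capitals. RefSeq has 2 starts for KDM6B, and both are shown, and for HDAC9 the window nearest the deposited gene start out of 5 was taken. The SETD7 window lies 50480 bases from the 5′ end of the gene in the deposited table.
KDM6B chr17:7833967-7834266 strand +: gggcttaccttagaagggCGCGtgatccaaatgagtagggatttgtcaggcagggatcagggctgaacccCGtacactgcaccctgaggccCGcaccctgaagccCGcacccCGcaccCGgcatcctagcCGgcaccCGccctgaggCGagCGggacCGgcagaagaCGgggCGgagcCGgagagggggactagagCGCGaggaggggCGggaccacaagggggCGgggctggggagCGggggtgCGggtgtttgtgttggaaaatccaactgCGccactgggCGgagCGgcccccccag
KDM6B chr17:7839667-7839966 strand +: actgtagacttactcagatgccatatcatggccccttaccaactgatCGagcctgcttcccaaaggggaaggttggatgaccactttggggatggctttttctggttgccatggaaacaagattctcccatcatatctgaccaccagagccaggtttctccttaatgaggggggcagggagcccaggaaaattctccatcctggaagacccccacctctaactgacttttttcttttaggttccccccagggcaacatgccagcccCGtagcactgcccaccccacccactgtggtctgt
SETD7 chr4:139556170-139556469 strand -: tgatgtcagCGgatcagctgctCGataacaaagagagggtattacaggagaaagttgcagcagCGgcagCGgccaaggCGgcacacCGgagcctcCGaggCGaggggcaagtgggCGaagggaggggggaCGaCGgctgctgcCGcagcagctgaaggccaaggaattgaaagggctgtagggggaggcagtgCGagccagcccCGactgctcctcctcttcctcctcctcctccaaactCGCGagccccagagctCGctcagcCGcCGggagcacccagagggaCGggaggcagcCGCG
KMT2A chr11:118436242-118436541 strand +: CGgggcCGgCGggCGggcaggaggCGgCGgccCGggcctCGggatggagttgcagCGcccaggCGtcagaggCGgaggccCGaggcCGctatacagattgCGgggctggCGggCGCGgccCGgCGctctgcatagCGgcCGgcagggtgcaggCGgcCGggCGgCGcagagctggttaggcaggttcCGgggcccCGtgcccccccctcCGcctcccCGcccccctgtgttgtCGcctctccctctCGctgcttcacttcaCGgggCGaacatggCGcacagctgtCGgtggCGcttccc
HDAC9 chr7:18086575-18086874 strand +: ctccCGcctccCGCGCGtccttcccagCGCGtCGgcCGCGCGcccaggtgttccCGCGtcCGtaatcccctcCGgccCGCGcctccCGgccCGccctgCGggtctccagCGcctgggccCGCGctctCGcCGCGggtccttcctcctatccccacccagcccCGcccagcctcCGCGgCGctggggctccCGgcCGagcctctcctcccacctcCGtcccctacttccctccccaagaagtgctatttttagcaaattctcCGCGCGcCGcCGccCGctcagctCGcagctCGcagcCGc
The upstream KDM6B start, and those of SETD7, KMT2A and HDAC9, lay in CpG-dense sequence with 24, 22, 36 and 41 CpG dinucleotides, whereas the downstream KDM6B start had 2. Over the 50 members with a RefSeq window, the median was 30 CpG per window, compared with 14 over all 35116 windows. It was 28.5 for members that rose, 32 for members that fell and 30 for those that did not pass. No windows were used for HDAC5, SETD1B, KAT8, KAT6A and KDM4E.

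On both strands, 7 short motifs were searched in these windows. The heat shock element, taken as GAANNTTC, matched 64 bases before the downstream KDM6B start and in SETD1A, 2 of 50 members, and in 6.77% of all windows. The AP-1 motif TGANTCA matched in KDM4C and KDM6A, 2 of 50 members, and in 7.71% of all windows. The antioxidant element TGACNNNGC matched in 5 members (HDAC6, KDM4C, KMT2D, HDAC4 and SETD6) and in 13.4% of windows, and the CCAAT box in 15 members and 34.6% of windows. The CArG box, searched by its usual consensus, matched in HDAC6 alone, and in 1.29% of windows. The CRE motif TGACGTCA and the EGR motif GCGTGGGCG matched in 0 members, and in 1.85% and 0.795% of windows. Members count 1 window each and all windows do not, so these shares too are of unlike sets. A match describes letters and not binding.

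Among the 16 tested demethylases, 4 rose, 6 fell and 6 did not pass. KDM6B (chr17:7839904-7854796, plus strand in the deposited table) encodes JMJD3, which strips methyl groups from H3K27 and is induced in activated macrophages. Its level was 74.9, 93.9 and 75.4 CPM in the 3 control libraries and 203, 182 and 207 CPM in the DHA libraries. Every DHA library lay above every control library, and the means were 81.4 ± 10.8 and 197 ± 13.7 CPM, a log2 fold change of 1.28 ± 0.10 (SE) and an edgeR adjusted p of 6.47e-07. The other H3K27 demethylase, KDM6A, had 38.9, 43.2 and 33.8 CPM in controls and 47.5, 42.6 and 45.2 CPM in DHA, which overlap. Its adjusted p was 0.064 in edgeR's test. It became 0.0176 without the DHA library of replicate 2, 0.0250 without the control library of replicate 2 and 0.000252 with the GC and length offset, all toward higher levels.

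KDM2A and KDM2B, H3K36 demethylases whose zinc finger binds unmethylated CpG islands, went opposite ways. KDM2A (chr11:67119269-67258087) had 146, 145 and 149 CPM in controls and 279, 244 and 261 CPM in DHA. KDM2B (chr12:121429097-121581015) had 96.9, 89.1 and 86.0 CPM in controls and 66.0, 53.1 and 63.6 CPM in DHA. Neither gene's groups overlapped. The log2 fold changes in edgeR's test were 0.84 ± 0.07 (adjusted p = 1.50e-06) and −0.57 ± 0.09 (adjusted p = 0.000180). The same division was seen in the H3K9 demethylases KDM3A, also known as a hypoxia-inducible gene, and KDM3B. KDM3A had 47.9, 53.1 and 51.9 CPM in controls and 82.0, 78.5 and 80.2 CPM in DHA, and rose by 0.66 ± 0.07 (edgeR adjusted p = 1.09e-05). With the GC and length offset its log2 fold change was 1.08. KDM3B had 198, 182 and 188 CPM in controls and 145, 140 and 144 CPM in DHA, and fell by 0.41 ± 0.07 (edgeR adjusted p = 0.000224). Both genes separated the groups fully.

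The erasers of H3K4 methylation are 5 genes here. Of these 4 fell, where 30.1% of all genes tested fell, and KDM5C, at 146 ± 8.98 and 139 ± 8.98 CPM, did not pass. KDM1A, the flavin-dependent demethylase LSD1 of the CoREST complex, had 252, 246 and 269 CPM in controls and 195, 184 and 200.0 CPM in DHA, a log2 fold change of −0.40 ± 0.07 (edgeR adjusted p = 0.000335). Its relative KDM1B had 42.6, 42.6 and 43.8 CPM in controls and 26.9, 25.4 and 24.3 CPM in DHA, a log2 fold change of −0.75 ± 0.08 (edgeR adjusted p = 9.03e-06), which the GC and length offset brought to −0.44. In both, every DHA library was below every control library. KDM5A and KDM5B, jumonji demethylases of trimethylated H3K4, fell by 0.31 ± 0.08 and 0.48 ± 0.12 in edgeR's test (adjusted p of 0.00781 and 0.00492), but with the offset the values were 0.10 and −0.08 and neither passed. The summed level of the 5 genes was 561 ± 7.14 CPM in controls and 446 ± 5.13 CPM in DHA. With the offset, 2 of the 5 fell.

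Among demethylases of H3K9 in the KDM4 family, KDM4C was the member that passed. It had 20.7, 23.7 and 22.6 CPM in controls and 29.9, 26.4 and 29.6 CPM in DHA, without overlap, a log2 fold change of 0.36 ± 0.09 in edgeR's test (adjusted p = 0.00563) and 0.62 with the offset. KDM4A at 64.4 ± 7.21 and 65.6 ± 6.54 CPM and KDM4B at 54.8 ± 2.57 and 52.4 ± 6.51 CPM had overlapping groups, and KDM4D was between 2.86 and 3.73 CPM in all libraries. KDM7A, which acts on H3K9 and H3K27, was at 29.4 ± 6.69 and 34.9 ± 3.33 CPM with an edgeR adjusted p of 0.139. Its adjusted p was 0.00569 without the control library of replicate 2, where it was highest among controls, and 0.000551 with the offset.

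**Figure D2:**
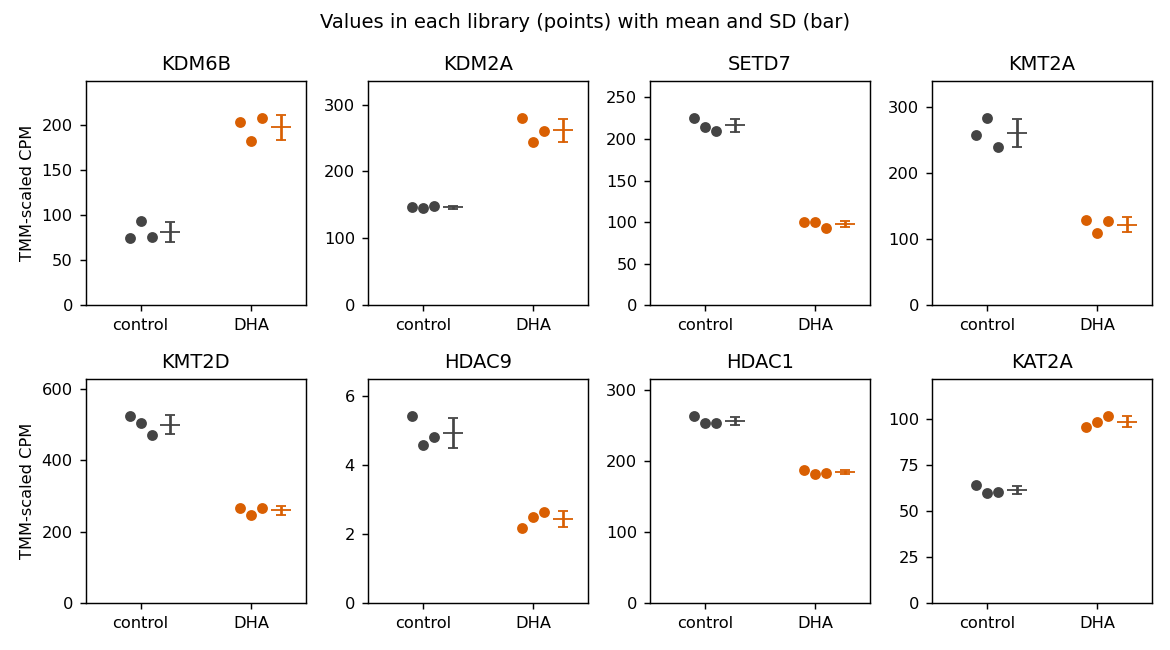
TMM-scaled CPM (axes from 0) of 8 members in each library, with control libraries in grey and DHA libraries in orange; bars give mean and SD of 3 libraries. In all 8 panels the 3 DHA points lie on the same side of the 3 control points, above them for KDM6B, KDM2A and KAT2A and below them for SETD7, KMT2A, KMT2D, HDAC9 and HDAC1.

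The KMT2 and SETD1 genes encode the catalytic subunits of the COMPASS complexes, which write H3K4 methylation. Of the 6 with that activity, KMT2A, KMT2D and SETD1A fell, KMT2B and KMT2C rose, and SETD1B did not pass. KMT2D (chr12:49018975-49059774), an enhancer monomethyltransferase, had 524, 503 and 472 CPM in controls and 266, 246 and 266 CPM in DHA. KMT2A (chr11:118436490-118526832), the MLL1 gene rearranged in leukaemia, had 259, 283 and 241 CPM in controls and 130, 109 and 128 CPM in DHA. In both genes the highest DHA library was far below the lowest control library, and edgeR gave log2 fold changes of −0.95 ± 0.07 (adjusted p = 7.56e-07) and −1.09 ± 0.09 (adjusted p = 1.11e-06). Without the DHA library of replicate 2, KMT2A was at −0.99, just under a 2-fold change.

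The nearest relatives of both genes were higher in DHA. KMT2B, the promoter-bound paralog of KMT2A, had 98.7, 99.5 and 97.6 CPM in controls and 154, 128 and 141 CPM in DHA, a log2 fold change of 0.52 ± 0.08 (edgeR adjusted p = 0.000111). KMT2C, which shares its complex type with KMT2D, had 98.5, 108 and 93.7 CPM in controls and 138, 133 and 141 CPM in DHA, a log2 fold change of 0.45 ± 0.07 (edgeR adjusted p = 0.000213) that the offset moved to 0.82. Neither gene's groups overlapped. SETD1A, a subunit of the complex that lays down most trimethylated H3K4, had 145, 151 and 151 CPM in controls and 124, 101 and 132 CPM in DHA and fell by 0.33 ± 0.09 (edgeR adjusted p = 0.00873). SETD1B was at 101 ± 1.93 and 89.1 ± 8.26 CPM with an edgeR adjusted p of 0.0702, and it passed as lower with library totals alone, without the low-count filter and with the offset. The 6 genes summed to 1209 ± 49.4 CPM in controls and 868 ± 61.3 CPM in DHA. KMT2E, whose protein lacks activity on histones, was at 84.6 ± 5.27 and 88.5 ± 11.2 CPM; its edgeR adjusted p was 0.574, and leaving out DHA replicate 2 made it 0.0250 and the offset 0.000639.

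Of the other 12 methyltransferases, 4 rose, 2 fell and 6 did not pass. SETD7 (chr4:139495941-139606699, minus strand in the deposited table), which adds a single methyl group to H3K4 and also modifies many other proteins, had 225, 214 and 210 CPM in controls and 100.2, 99.9 and 93.2 CPM in DHA. The groups were far apart, and its log2 fold change of −1.14 ± 0.07 had the smallest adjusted p of all members in edgeR's test, 1.05e-07. The offset brought it to −0.77. KMT5C, which builds di- and trimethylated H4K20 in heterochromatin, had 15.5, 18.6 and 17.7 CPM in controls and 30.0, 26.3 and 26.2 CPM in DHA, without overlap. It rose by 0.67 ± 0.10 (edgeR adjusted p = 0.000152), or 0.31 with the offset. SETD4 also separated the groups, with 12.9, 13.3 and 12.0 CPM in controls and 18.7, 23.6 and 18.1 CPM in DHA, and rose by 0.66 ± 0.12 (edgeR adjusted p = 0.000562).

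For 3 further SETD genes the call was fragile. SETD3, an actin histidine methyltransferase, had 65.6, 61.4 and 59.2 CPM in controls and 56.6, 46.8 and 54.4 CPM in DHA and fell by 0.24 ± 0.09 (edgeR adjusted p = 0.0311), with adjusted p of 0.121, 0.0640 and 0.114 without DHA replicate 2, DHA replicate 3 or control replicate 1. SETD5, mutated in an intellectual disability syndrome, had 247, 282 and 232 CPM in controls and 325, 279 and 313 CPM in DHA, so that its groups overlapped. It rose by 0.27 ± 0.09 (edgeR adjusted p = 0.0199), with adjusted p of 0.0760, 0.0557, 0.0847 and 0.114 without DHA replicate 1, DHA replicate 3, control replicate 1 or control replicate 3. SETD9 was low, at 3.10 ± 0.624 and 4.43 ± 0.693 CPM, and its edgeR adjusted p of 0.0497 became 0.0804, 0.123, 0.0960 and 0.181 without DHA replicate 1, DHA replicate 2, control replicate 2 or control replicate 3.

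EZH2 and EZH1, alternative catalytic subunits of the Polycomb complex PRC2 that methylates H3K27, did not pass. EZH2 had 133, 142 and 134 CPM in controls and 156, 129 and 152 CPM in DHA, with the DHA library of replicate 2 below all other 5 libraries. EZH1 had 27.8, 32.1 and 26.9 CPM in controls and 22.8, 31.0 and 24.8 CPM in DHA, and here that library was the highest of the DHA group. Without it EZH2 passed as higher (log2 fold change 0.20, edgeR adjusted p = 0.00828) and EZH1 as lower (−0.25, adjusted p = 0.0440). With the offset EZH2 was called as higher, at 0.30 (edgeR adjusted p = 0.00286). SETD2, the main writer of trimethylated H3K36, was at 139 ± 8.21 and 122 ± 10.9 CPM with an edgeR adjusted p of 0.0651, 0.0451 without the control library of replicate 3; its log2 fold change of −0.19 turned to 0.20 with the offset. KMT5A, the H4K20 monomethyltransferase, was at 74.7 ± 2.17 and 77.9 ± 3.94 CPM, KMT5B at 37.8 ± 3.13 and 33.6 ± 3.08 CPM (called as lower with library totals alone and as higher with the offset), and SETD6, which methylates the NF-kB subunit RelA, at 27.9 ± 0.548 and 25.0 ± 3.36 CPM.

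Of the 10 tested deacetylases 3 rose, 3 fell and 4 did not pass. Of the 4 class I enzymes, the nuclear core of corepressor complexes, HDAC1 and HDAC2 fell and HDAC3 and HDAC8 did not pass. HDAC1 (chr1:32292086-32333635) had 263, 253 and 254 CPM in controls and 187, 182 and 183 CPM in DHA, without overlap, a log2 fold change of −0.48 ± 0.06 (edgeR adjusted p = 4.71e-05). HDAC2 had 92.3, 85.6 and 93.8 CPM in controls and 81.4, 74.4 and 79.6 CPM in DHA, and its log2 fold change of −0.21 ± 0.07 (edgeR adjusted p = 0.0243) turned to 0.34 with an adjusted p of 0.00216 under the GC and length offset. The HDAC2 call was also lost, at adjusted p of 0.0523 to 0.0815, when any 1 of the DHA libraries or the control library of replicate 1 or 3 was left out. HDAC3 was at 63.1 ± 1.45 and 58.8 ± 5.81 CPM and HDAC8 at 16.7 ± 1.15 and 14.6 ± 1.02 CPM. The HDAC8 log2 fold change of −0.20 was −0.30 and called with library totals alone (edgeR adjusted p = 0.0270) and 0.29 and called with the offset (0.0368). The 4 genes together summed to 427 ± 10.8 CPM in controls and 336 ± 1.03 CPM in DHA.

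Class IIa enzymes shuttle between cytoplasm and nucleus and repress MEF2 transcription factors. Of these, HDAC5 and HDAC7 rose, HDAC9 fell and HDAC4 did not pass. HDAC5 had 54.8, 59.4 and 59.9 CPM in controls and 74.8, 83.0 and 72.9 CPM in DHA and rose by 0.41 ± 0.08 (edgeR adjusted p = 0.000690). HDAC7 had 52.7, 47.5 and 47.8 CPM in controls and 60.3, 68.5 and 60.5 CPM in DHA and rose by 0.36 ± 0.08 (edgeR adjusted p = 0.00259). HDAC9 (chr7:18086949-19002416) was rare, with 5.42, 4.57 and 4.82 CPM in controls and 2.18, 2.50 and 2.63 CPM in DHA, and fell by 1.02 ± 0.18 (edgeR adjusted p = 0.000478). In these 3 genes the groups did not overlap. HDAC9 was at −0.94 and −0.95 without DHA replicate 1 or control replicate 1 and at −0.51 with the offset. HDAC4 was at 29.4 ± 1.73 and 29.3 ± 5.41 CPM.

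HDAC6, the class IIb enzyme that deacetylates tubulin in the cytoplasm, had 43.6, 42.7 and 42.0 CPM in controls and 69.0, 67.6 and 65.0 CPM in DHA. It separated the groups by far more than their spread and rose by 0.65 ± 0.07 (edgeR adjusted p = 9.61e-06). HDAC11, the class IV enzyme, was at 14.1 ± 0.180 and 11.6 ± 1.43 CPM with an edgeR adjusted p of 0.0594. It passed as lower with library totals alone, without the low-count filter and with the offset.

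Of the 8 acetyltransferases, 2 rose, 3 fell and 3 did not pass. KAT2A (chr17:42113108-42121358), the GCN5 subunit of the SAGA coactivator, had 64.1, 60.0 and 60.3 CPM in controls and 95.5, 98.4 and 102 CPM in DHA. Its paralog KAT2B, or PCAF, which takes the same place in the complex, had 7.83, 7.99 and 8.31 CPM in controls and 4.23, 4.32 and 5.41 CPM in DHA. Neither overlapped between groups, and edgeR gave log2 fold changes of 0.68 ± 0.07 (adjusted p = 5.42e-06) and −0.79 ± 0.15 (adjusted p = 0.000730), with 0.40 and −0.56 under the offset. Among the MYST enzymes, KAT5, the TIP60 subunit of NuA4, had 28.3, 24.6 and 27.3 CPM in controls and 40.2, 37.4 and 39.8 CPM in DHA and rose by 0.55 ± 0.09 (edgeR adjusted p = 0.000172), or 0.30 with the offset. KAT6A, or MOZ, had 135, 138 and 126 CPM in controls and 87.6, 64.4 and 83.3 CPM in DHA and fell by 0.76 ± 0.10 (edgeR adjusted p = 5.78e-05), with −0.40 under the offset. Its groups did not overlap, and the lowest value was in the DHA library of replicate 2.

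KAT6B, the paralog of KAT6A, was called with less margin. It had 45.8, 54.6 and 43.5 CPM in controls and 42.3, 30.0 and 40.5 CPM in DHA, a log2 fold change of −0.35 ± 0.13 (edgeR adjusted p = 0.0321) that was 0.01 with the GC and length offset. Its adjusted p was 0.115 without the DHA library of replicate 2, at −0.18, and 0.117 without the control library of replicate 2, at −0.27. KAT7, or HBO1, was at 88.1 ± 4.07 and 85.2 ± 8.89 CPM, KAT8, or MOF, which acetylates H4K16, at 44.0 ± 3.75 and 47.2 ± 1.67 CPM, and KAT14, of the ATAC complex, at 14.4 ± 0.216 and 13.8 ± 0.803 CPM. Control and DHA values of these 3 overlapped. KAT7, at −0.05 with TMM, was called as higher with the offset, at 0.26 (edgeR adjusted p = 0.0105).

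Paralogs were set against each other within each library, where the library's scaling factor cancels. Differences in GC content or length between paralogs do not cancel, and ratios with the GC and length offset were not computed. The 12 pairs were picked by hand, and the KDM4, KDM5 and class IIa deacetylase families were not paired. Of the 12 pairs, 5 had members that passed in opposite directions (KMT2B and KMT2A, KMT2C and KMT2D, KDM2A and KDM2B, KDM3A and KDM3B, KAT2A and KAT2B). All 10 genes of these 5 pairs kept their calls in every one of 14 alternative fits. In 3 pairs both members fell (KDM1A and KDM1B, HDAC1 and HDAC2, KAT6A and KAT6B), although HDAC2 and KAT6B turned above 0 with the GC and length offset. In 3 pairs a single member passed, and for EZH2 and EZH1 neither did. The ratio of KMT2B to KMT2A reads was 0.382, 0.351 and 0.406 in controls and 1.18, 1.18 and 1.10 in DHA, a log2 difference of 1.61. For KAT2A over KAT2B it was 8.19, 7.51 and 7.26 in controls and 22.6, 22.8 and 18.8 in DHA. KDM2A over KDM2B went from 1.51, 1.62 and 1.73 to 4.23, 4.60 and 4.10. KMT2C over KMT2D, at 0.188, 0.215 and 0.199 in controls, was 0.518, 0.540 and 0.529 in DHA. In these pairs and in KDM3A over KDM3B, where the log2 difference was 1.06, the ratios of the groups did not overlap, which follows from choosing pairs by their opposite calls. The ratios are descriptive, since 3 against 3 libraries cannot give an exact permutation p below 0.1.

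**Figure D3:**
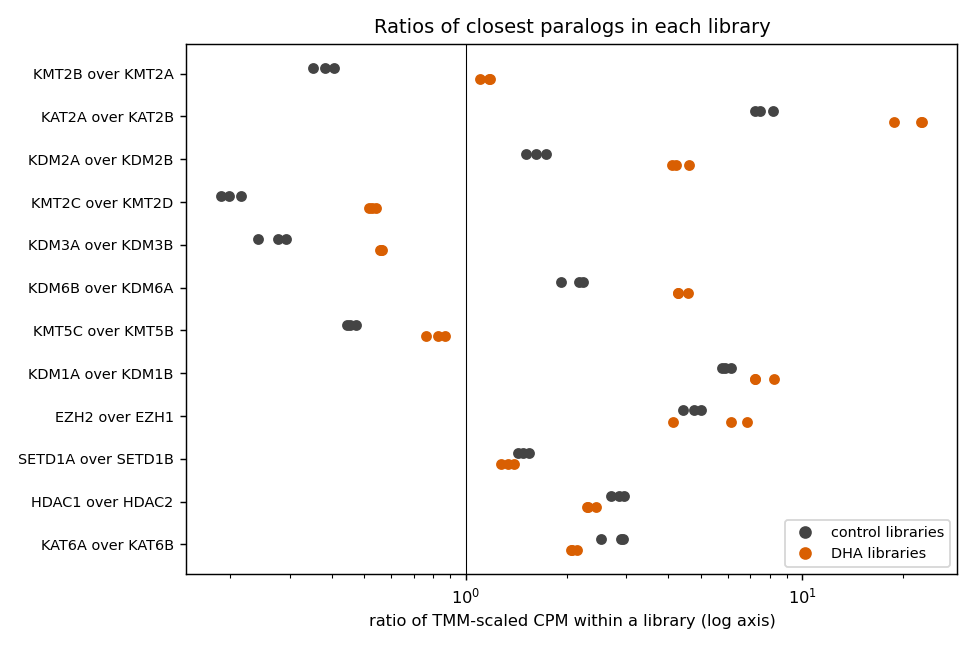
Ratio of TMM-scaled CPM of 12 pairs of paralogs within each library, on a log axis, with control libraries in grey and DHA libraries in orange. The 5 pairs whose members passed in opposite directions have the member that rose on top, so their shift to the right follows from that choice. KMT2B over KMT2A lies between 0.351 and 0.406 in controls and between 1.10 and 1.18 in DHA, and of the 12 pairs EZH2 over EZH1 overlaps between groups.

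The summed transcript of the family was lower in every DHA library than in every control library, with TMM and with library totals alone. A sum with the GC and length offset was not computed. With TMM all 55 members summed to 4729, 4796 and 4534 CPM in controls and 4434, 4125 and 4358 CPM in DHA, or 4686 ± 136 and 4306 ± 161 CPM. The summed level in DHA over that in controls was 0.919 for the members and 1.07 for all genes tested. Differences of the members' means below 0 came to −936 CPM over 30 genes and those above 0 to 556 CPM over 25. KMT2D accounted for −240 CPM, KMT2A for −139, SETD7 for −118, HDAC1 for −72.7 and KDM1A for −62.6. On the other side stood KDM6B with 116 CPM, KDM2A with 115, SETD5 with 51.7, KMT2B with 42.4 and KAT2A with 37.0. Per kilobase of annotated exon, the highest control levels were 64.8 CPM for HDAC1, 47.0 for KDM1A, 30.1 for EZH2, 24.4 for KMT2D, 23.8 for KDM3B and 23.5 for SETD5. The lowest among tested members were 0.728 for HDAC8 and 0.294 for HDAC9. The exon length merges the exons of all annotated transcripts of a gene, so these ranks depend on the annotation. For HDAC8, at 16.7 CPM in controls, it was 22986 bases.

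Over the whole table, longer and more AT-rich genes tended to be lower in DHA, and so did such members. Across the 53 tested members the log2 fold change had a Spearman correlation of −0.36 with the length of the gene on the genome, −0.32 with exon length and 0.31 with GC content of the transcript. Across 15766 genes the same values were −0.28, −0.28 and 0.38. These are descriptions across genes that share the same 6 libraries. Median GC content was 56.2% for members that rose, 45.3% for members that fell and 48.6% for the rest, and median gene length was 44849 bases for those that rose and 84976 bases for those that fell. With the offset for GC content and exon length, 23 members rose and 14 fell. What part length and GC content have in single members' values beyond this was not tested.

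**Figure D4:**
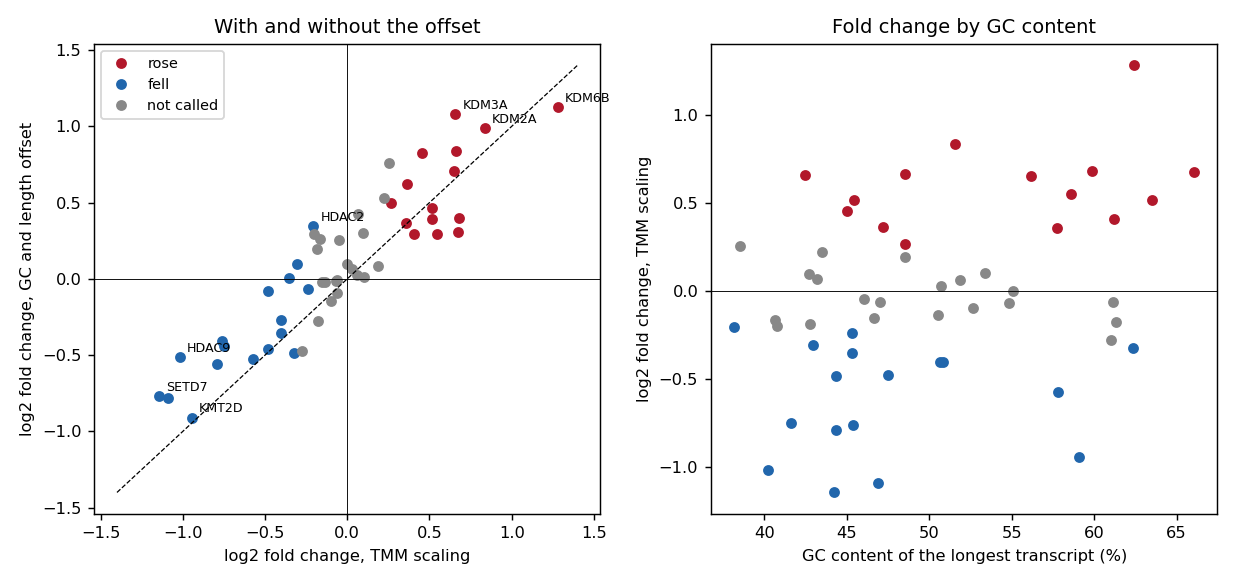
Left, log2 fold change of each tested member with TMM scaling (x axis) and with the GC and length offset (y axis), with a dashed line of equal values. Right, log2 fold change with TMM scaling by GC content of the longest transcript in percent. KDM6B stays above 1 on both axes of the left panel (1.28 and 1.13), SETD7 moves from −1.14 to −0.77, and HDAC2 moves from −0.21 to 0.34.

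Some members share exons with neighbours, and the sources used here do not give whether counting used strand. RNASEH2C lies on the opposite strand over 38.6% of KAT5 exon bases, and its log2 fold change was 0.06, which did not pass. CNOT1, which lies opposite 21.4% of SETD6 exon bases, fell by 0.99 while SETD6 was at −0.15. MAPK12 on the same strand covers 55.8% of HDAC10 exon bases and rose by 0.60, and HDAC10 itself was at 0.457 ± 0.226 CPM in controls and 0.472 ± 0.100 CPM in DHA. Also on the same strand, AL451062.3 covers 40.2% of KDM4A exon bases and AP001267.5 covers 17.9% of KMT2A exon bases. Neither of these partners had a count value here. Reads of opposite-strand partners cannot be told apart without strand. Reads of same-strand partners, such as HDAC10 and MAPK12, cannot be told apart by strand at all in shared exons. Named pseudogenes of EZH2, HDAC1 and SETD6 held at most 1 mean count.

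Enzymes outside the set, KDM8 among them, were read from lists of the same pathways. Of all genes tested 29.6% rose, 30.1% fell and the median log2 fold change was 0.01. With the offset that median was also 0.01, and the shares of all genes that rose and fell were not computed. Of 9 other acetyltransferases, 5 fell and 1 rose (median −0.43), but with the offset 2 fell and 3 rose (median −0.10). The nuclear receptor coactivator NCOA2 was at −0.92 and the cohesin acetyltransferase ESCO2 at −0.81, with −0.55 and −0.34 under the offset, and TAF1 was at −0.43, with −0.12 and no call under the offset. EP300, the p300 coactivator, was the member that rose, at 0.40. Of 17 other lysine methyltransferases 8 fell and 2 rose (median −0.30), and with the offset 8 fell and 4 rose (median −0.06). The H3K36 enzymes NSD1 and ASH1L were at −0.88 and −0.81, with −0.58 and −0.44 under the offset, and PRDM2 was at 0.98. Of 8 other demethylase genes 3 fell and 2 rose (median −0.31), and with the offset 5 fell and 2 rose. JMJD6, a jumonji hydroxylase, rose from 76.8 ± 9.24 to 215 ± 12.5 CPM, RIOX2 was at −0.58, with −0.23 under the offset, and PHF8 was at −0.44.

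Of 7 sirtuins, the NAD-dependent deacetylases, 5 rose and 0 fell (median 0.51), with SIRT1 at 0.64, SIRT6 at 0.61 and SIRT7 at 0.51. With the offset 2 rose and 1 fell, and SIRT6 was at 0.09 and not called. Of 8 tested arginine methyltransferases 4 rose and 2 fell (median 0.06). That count did not hold: with library totals alone 2 rose and 4 fell, with the offset 3 rose and 3 fell, and without the low-count filter 0 rose and 2 fell. PRMT6 was at −0.57 and CARM1 at −0.34, with −0.61 for CARM1 under the offset. PRMT3 was at 0.29, with 0.78 under the offset and no call, at 0.23 (edgeR adjusted p = 0.0687), without the low-count filter.

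Partner subunits of the members' complexes were read in the same way. Of 9 PRC2 subunits, the partners of EZH2, 6 fell and 1 rose (median −0.26), and with the offset 4 fell and 4 rose. PHF1 was at 0.79, RBBP4 at −0.62 and AEBP2 at −0.74, with 0.49, −0.21 and −0.30 under the offset. Of 12 COMPASS subunits, the partners of the KMT2 and SETD1 enzymes, 7 fell and 1 rose (median −0.32), and with the offset 6 fell and 1 rose. WDR82 was at −0.74 and CXXC1 at 0.46, with −0.49 and 0.23 under the offset, and PSIP1 was at −0.51, with −0.12 and no call under the offset. Of 26 tested subunits of the corepressor complexes that hold HDAC1, HDAC2 and HDAC3, 11 fell and 5 rose (median −0.15), and with the offset 8 fell and 5 rose. TBL1XR1 was at −1.02, with −0.40 under the offset, GATAD2B at −0.89 and SUDS3 at −0.90, and among those that rose SAP18 was at 0.64.

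Of 32 subunits of acetyltransferase complexes 14 fell and 10 rose (median −0.04), and with the offset 9 fell and 13 rose. EPC1, a NuA4 subunit beside KAT5, rose from 23.0 ± 2.88 to 66.4 ± 10.0 CPM, TADA3, a SAGA subunit beside KAT2A, was at 0.74 and JADE2 at −0.90. Among readers of acetylated lysine, BRD2 rose from 424 ± 5.75 to 1286 ± 180 CPM (log2 fold change 1.60, edgeR adjusted p = 1.51e-07) and BRD3 fell by 1.06. Of the MEF2 factors bound by class IIa deacetylases, MEF2D rose by 0.71 and MEF2C fell by 0.99, with −0.48 under the offset. MEF2A fell by 0.34, but it was at 0.03 and not called with the offset and at −0.27 and not called (edgeR adjusted p = 0.0521) without the control library of replicate 2.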

How the data were processed

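The authors deposited raw read counts per gene for 3 control and 3 DHA libraries of SW480 cells. Per the submitters' processing notes HISAT2 and DESeq2 1.18.1 were used; the sources used here do not give the counting tool, strand setting, annotation or genome build. Of 39293 gene names, 39167 were found in GENCODE release 29 (GRCh38), 96.9% with the deposited coordinates, and exon lengths and GC content come from that release. The table holds 40846 genes, of which 1696 share 143 names with identical counts, so that 1 row per name was kept; 32 annotation lines without a gene were left out. Groups came from the treatment label, since the title of 1 DHA library reads DNA. The authors' deposited comparison of 2969 genes, with log2 fold changes and adjusted p-values, was used only where named. A further deposited table was not used.

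The test was run in edgeR 4.0.16 under R 4.3.3 (TMM, filterByExpr, quasi-likelihood test, Benjamini-Hochberg adjustment over 15811 genes, no covariate), with limma 3.58.1 and DESeq2 1.42.0 as alternatives and tables in Python 3.11.15. Standard errors come from the F statistic, and "passed" or "called" means an adjusted p under 0.05. Without adjustment 10052 genes had p under 0.05, and the common dispersion as a coefficient of variation was 0.0902. The fit was also run on simulated counts with few genes changed, evenly up and down, and a single dispersion for all genes. Such counts do not test the scaling of data with as many changes as here. Alternatives were DESeq2 size factors, library totals alone, DESeq2, 2 other filters, a replicate block, a GC and length offset, limma on log2(CPM + 1) and leaving out each library. By-library values are given for members past 2-fold, for the 2 smallest adjusted p and the less frequent direction in each class and for paralogs that passed in opposite directions. Of each pathway list up to 3 genes with the smallest adjusted p are given by fold changes or means, of which 1 is not reported here. Further members, EP300 and SAP18 were added after their values were seen. The members and lists were chosen with earlier results of these data known. The floor of 3 counts covers counting error only.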

Additional observations from a re-analysis of the deposited data

How the results depend on the processing

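Of the 32 members that passed, 25 kept direction and call in all 14 alternatives, 13 of them higher and 12 lower in DHA. The other 7 were KDM5A, KDM5B, SETD3, SETD5, SETD9, HDAC2 and KAT6B, and 11 of the 21 other tested members passed in at least 1 alternative. With the GC and length offset 23 members rose in place of 15 and 2 in place of 4 changed at least 2-fold. The same offset turned the direction of KDM5A (to 0.10), KMT5B (0.26), SETD2 (0.20), HDAC2 (0.34), HDAC8 (0.29), KAT6B (0.0054) and KAT7 (0.26), and the cause was not tested. Leaving out each library in turn gave 13 to 17 members higher, 15 to 17 lower, 3 to 4 changed at least 2-fold and 8351 to 9399 of all genes called. Without the low-count filter the median log2 fold change was 0.15 over every gene with any count, compared with 0.01 over the 15811 genes that passed the filter. These are medians of different gene sets.

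With the replicate number as a block, 16 members rose, 16 fell, 4 changed at least 2-fold and 8907 of all genes passed. Deviations of same-numbered libraries from the group means correlated at 0.02, −0.08 and −0.05, and not every library correlated best with its own number. Deviations from a mean of 3 libraries are tied to each other, so they cannot show whether same-numbered libraries shared a batch.

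Members under 3 counts per library, such as KDM4E, were below what this depth can show.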
